A study of Ovis aries with 9 samples.

Results

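The cytosolic ribosomal protein genes encode the protein part of the ribosome, and their transcripts were followed gene by gene in sheep ovary RNA-Seq libraries. Members were the rows of the count table whose symbol is RPL or RPS followed by a number, with an optional A, X or L, together with RPLP0, RPLP1, RPLP2 and RPSA. This rule found 65 of 27174 rows, 24 of the small subunit (RPS) and 41 of the large subunit (RPL and RPLP), and 64 had enough reads to be tested. RPSA itself was not among them because its reads stood on a row named by a locus number, which is described further on with the other rows of that kind.

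Ovaries came from 9 adult ewes between 2.5 and 3 years old, in 3 groups of 3. Han BB (W1, W2 and W4) were Small Tail Han ewes homozygous for the FecB mutation of the BMP receptor gene BMPR1B, Han ++ (W6, W7 and W8) were Small Tail Han ewes without it, and Dorset (D4, D5 and D6) were ewes of a low-fecundity breed. Every ewe had received a progestogen sponge and then pregnant mare serum gonadotropin to synchronize estrus, and was killed 24 to 36 h after a later spontaneous estrus. Breed and, for the Han ewes, genotype are the only differences the labels give. The paper describes FecB typing of the Han ewes only, so a Han BB vs. Dorset difference joins breed and any difference in genotype. Each library is 1 ewe's whole ovarian tissue.

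A ribosome is built from ribosomal RNA and one copy of most ribosomal proteins, with a small subunit that decodes mRNA and a large subunit that joins amino acids. Ribosomal protein mRNAs are abundant in growing cells and carry a terminal oligopyrimidine (TOP) motif through which mTOR signalling controls their translation. In the ovary they are expressed in follicle, stromal and luteal cells and in oocytes. A few genes have paralogs whose use differs between tissues, such as RPL3L in striated muscle and RPL10L in testis.

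Libraries held from 10803913 counts (W8) up to 20992535 (W7). W4 and D6, from different groups, correlated with each other at r = 0.965 across tested genes, the highest value of any pair. Their correlations with the other 7 libraries were 0.815 to 0.934, against 0.863 to 0.954 among the other 7. The lowest value of each range was with D4, which reached at most 0.906 with any library. Apart from D4 the ranges were 0.876 to 0.934 and 0.902 to 0.954. Of 16 ovarian marker genes, 15 were analysed and none of these was at 0 in every library. Some had few reads, with at most 10 for WT1, 15 for BMP15 and 50 for AMH in any library, and FOXL2 was not analysed here. Markers of other tissue were also present, with summed levels of 386 to 1855 CPM (scaled counts relative to library size) for oviduct secretory genes, 142 to 444 CPM for ciliated cells, 194 to 697 CPM for immune cells and 4283 to 9404 CPM for smooth muscle. In whole tissue, fewer cells of a type and less RNA per cell cannot be told apart.

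The 65 genes together took 5.12% to 10.8% of all counted reads. In Dorset the share was 9.09% in D4, 5.94% in D5 and 5.12% in D6. In Han BB it was 10.8% in W1, 9.18% in W2 and 5.72% in W4, and in Han ++ it was 8.56% in W6, 7.04% in W7 and 7.29% in W8. The group means were 6.72% ± 2.09, 8.58% ± 2.61 and 7.63% ± 0.813 (SD, n = 3) in Dorset, Han BB and Han ++, so the groups overlapped, and W4 and D6 were the lowest library of their group. A single locus, LOC101101865, took 14.9% of the reads of D4 and 0.0107% to 7.69% elsewhere, which lowers the share left for other genes in D4 before scaling. Reads on small subunit genes relative to large subunit genes were 0.453 ± 0.030 in Dorset, 0.477 ± 0.038 in Han BB and 0.497 ± 0.003 in Han ++.

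**Figure D1:**
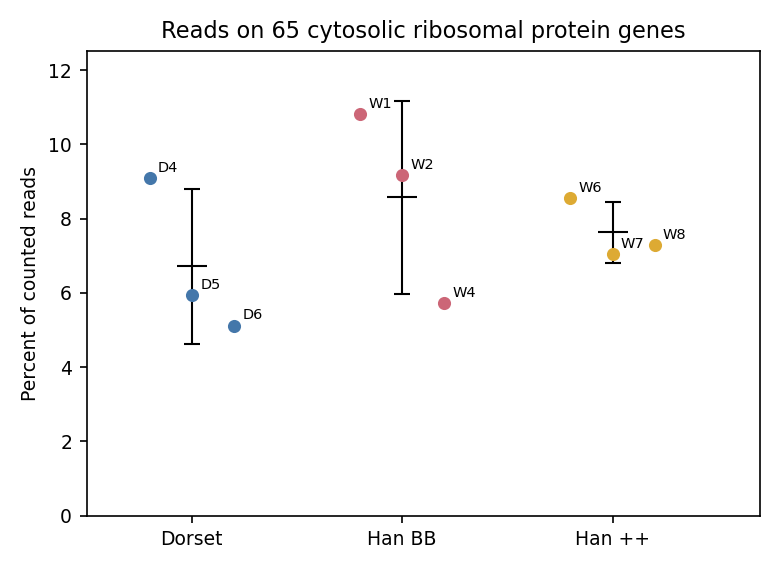
Percent of counted reads on the 65 ribosomal protein genes (y axis) in each library, by group (x axis). Coloured points are ewes, and black bars are the mean and SD of 3 ewes. Values run from 5.12% in D6 to 10.8% in W1, and the 3 groups overlap.

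No member passed the test in any of the 3 comparisons. The test was edgeR's quasi-likelihood test on the counts, scaled by TMM (trimmed mean of M-values), and a call needed a Benjamini-Hochberg adjusted p under 0.05 over all 16871 tested genes and a fold change above 1.5 or below its inverse. In the Han BB vs. Dorset comparison 0 of 64 members and 0% of all genes were called. In the Han ++ vs. Dorset comparison 0 members and 0.00593% of all genes were called, which is 1 gene. In the Han BB vs. Han ++ comparison 0 members and 0% of all genes were called.

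At an unadjusted p under 0.05, the Han BB vs. Dorset comparison held 2 members (RPS3A and RPL30) and 4.99% of all genes, the Han ++ vs. Dorset comparison 1 member (RPS3A) and 5.27%, and the Han BB vs. Han ++ comparison 2 members (RPS26 and RPS13) and 1.97%. These counts depended on the tool. With limma voom and quality weights 21, 3 and 14 members had an unadjusted p under 0.05, against 11.5%, 9.78% and 7.26% of all genes, and with DESeq2 2, 1 and 3 members did, against 5.4%, 4.63% and 2.21%. DESeq2 called 1 member in the Han ++ vs. Dorset comparison, RPS3A, among 65 of 16108 genes called. It called 0 members in the other comparisons, with 38 of 15632 genes called in Han BB vs. Dorset and 2 of 24699 in Han BB vs. Han ++. With voom and quality weights limma called 0 members in each comparison. Of all 16871 genes it called 2 in Han BB vs. Han ++ and 0 in the comparisons with Dorset.

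The members leaned together even though none passed. Between Han BB and Dorset, 60 of 64 had a log2 fold change above 0, against 49.4% of all genes, and the median was 0.30. With voom and quality weights all 64 lay above 0, against 50.8% of all genes, and the median was 0.65. Between Han ++ and Dorset, 31 lay above 0, against 44.1% of all genes, and the median was -0.002. The sign of this median changed between settings, at 0.04 with TMM factors computed without the members (39 above 0), 0.21 with voom and -0.12 without W4 and D6 (16 above 0). Between Han BB and Han ++, 57 lay above 0, against 53.4% of all genes, and the median was 0.25, with 0.42 by voom and 0.47 in a fit with a term for W4 and D6. Members varied together from library to library, so these counts are not 64 separate observations, and without W1 the Han BB vs. Han ++ median was 0.03. The comparisons with Dorset share its 3 libraries, and without D4 their medians were 0.70 for Han BB and 0.41 for Han ++.

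**Figure D2:**
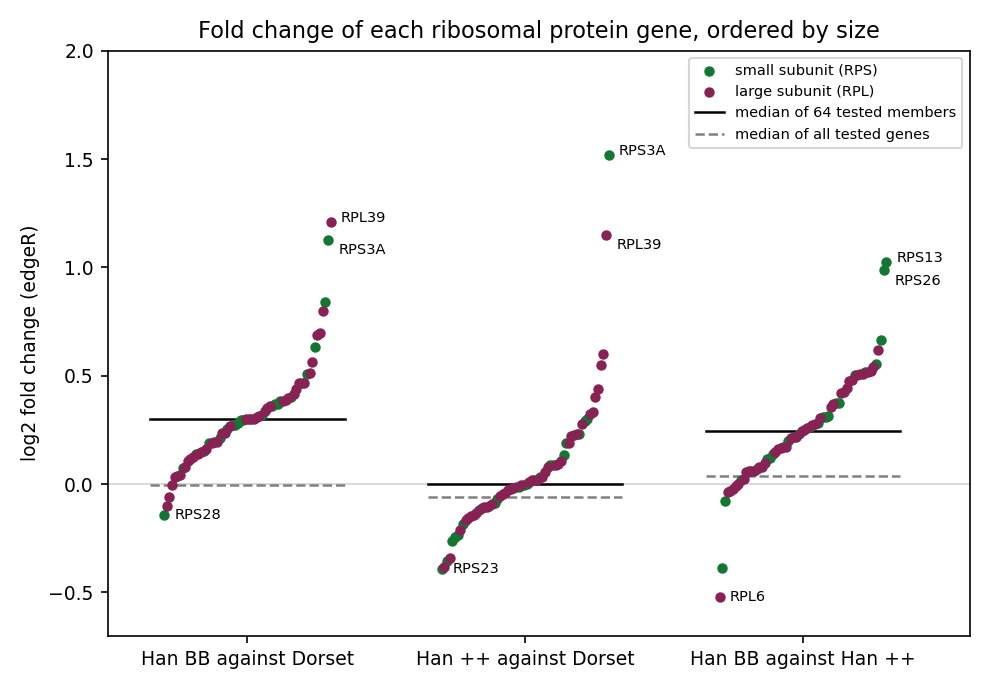
log2 fold change from edgeR (y axis) of each of the 64 tested ribosomal protein genes, ordered by size within each comparison (x axis), with small subunit genes in green and large subunit genes in purple. Solid lines are the medians of the members (0.30, -0.002 and 0.25) and dashed lines those of all tested genes, and RPS3A and RPL39 stand above the other genes in both comparisons with Dorset.

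Fewer members separated the groups completely. Between Han BB and Dorset, 6 members (RPL22L1, RPL24, RPL36A, RPL7, RPS15A and RPS3A) were higher in every Han BB ewe than in any Dorset ewe, against 4.27% of all genes, and 0 were lower in every one, against 4.52%. Between Han ++ and Dorset, 2 (RPL39 and RPS3A) were higher in every Han ++ ewe, against 5.47%, and 0 were lower, against 5.59%. Between Han BB and Han ++, 14 were higher in every Han BB ewe, against 4.78%, and 0 were lower, against 4.59%. The 14 were RPL7, RPL9, RPL13A, RPL15, RPL21, RPL22, RPL23, RPL24, RPL26, RPL36A, RPS13, RPS15A, RPS23 and RPS26. The count became 50 when W4 and D6 were left out, where 13.2% of all genes did so, and 51 without W4 alone, where 26.3% of all genes did not overlap in either direction. The 2 in Han ++ vs. Dorset became 1 with a filter of 1 CPM in 3 libraries.

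RPS3A, a small subunit protein of the solvent side near the mRNA exit, had the largest fold change of the members in Han ++ vs. Dorset. In Han BB vs. Dorset only that of RPL39 was larger. The level of RPS3A in Dorset was 2010 CPM in D4, 1009 in D5 and 944 in D6. In Han BB it was 4227 CPM in W1, 2058 in W2 and 2381 in W4, and in Han ++ it was 3584 in W6, 3715 in W7 and 4048 in W8. All 6 Han ewes lay above all 3 Dorset ewes, although W2 was only slightly above D4. The log2 fold change was 1.52 ± 0.40 (SE) for Han ++ vs. Dorset (2.86-fold) and 1.13 ± 0.40 for Han BB vs. Dorset (2.19-fold), with adjusted p-values of 0.592 and 0.975 by edgeR's quasi-likelihood test. DESeq2 gave an adjusted p of 0.023 for Han ++ vs. Dorset, and limma with voom gave 0.129.

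Between the Han groups, RPS3A had a log2 difference of -0.39 ± 0.40 (Han BB minus Han ++) and the groups overlapped through W1. A contrast of both Han groups together against Dorset, added after these values were seen, gave a log2 fold change of 1.32 with an adjusted p of 0.512 by edgeR's quasi-likelihood test. In it 0 members and 0% of all genes were called, 1 member and 6.12% of all genes had an unadjusted p under 0.05, 1 member and 1.83% of all genes were higher in all 6 Han ewes, and 0 members and 1.93% were lower.

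The same gene stood out when its reads were set against those of the other members of the same library, a measure that does not depend on the scaling between libraries. RPS3A took 1.94%, 1.82% and 1.83% of the members' reads in D4, D5 and D6. It took 4.02%, 2.20% and 3.93% in W1, W2 and W4, and 4.40%, 5.56% and 5.58% in W6, W7 and W8. The Dorset shares lay close together and below every Han share, and the Han ++ shares lay above every Han BB share.

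RPS3A was picked out after its levels were seen, so its shares are a description with no test. It was the only tested member whose share was higher in all 6 Han ewes, against 0.522% of all genes set against the same reads, and RPS14 was the only one lower in all 6 (0.719% to 0.833% against 0.842% to 1.02% in Dorset), against 2.44%. The members' total itself varied between libraries, so these percentages of all genes are only a rough background for the members. The oviduct secretory markers also differed by breed, with summed levels of 386 to 726 CPM in Dorset and 793 to 1855 CPM in Han. All 4 had reads in every library and OVGP1 made up most of the sum. OVGP1 and TFF3 were higher in all 6 Han ewes than in any Dorset ewe, whereas PAX8 (highest in D4) and MSLN overlapped between the breeds. Both separations were narrow, at 761 CPM in W7 and 718 in D6 for OVGP1. For TFF3, W4 and D6 each had 17 reads (1.14 and 0.949 CPM). In the other marker lists CAPS (1 of 9 ciliated markers) and ATP6 (1 of 7 mitochondrial transcripts) were also higher in all 6 Han ewes. The part of these markers in the RPS3A result was not tested.

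**Figure D3:**
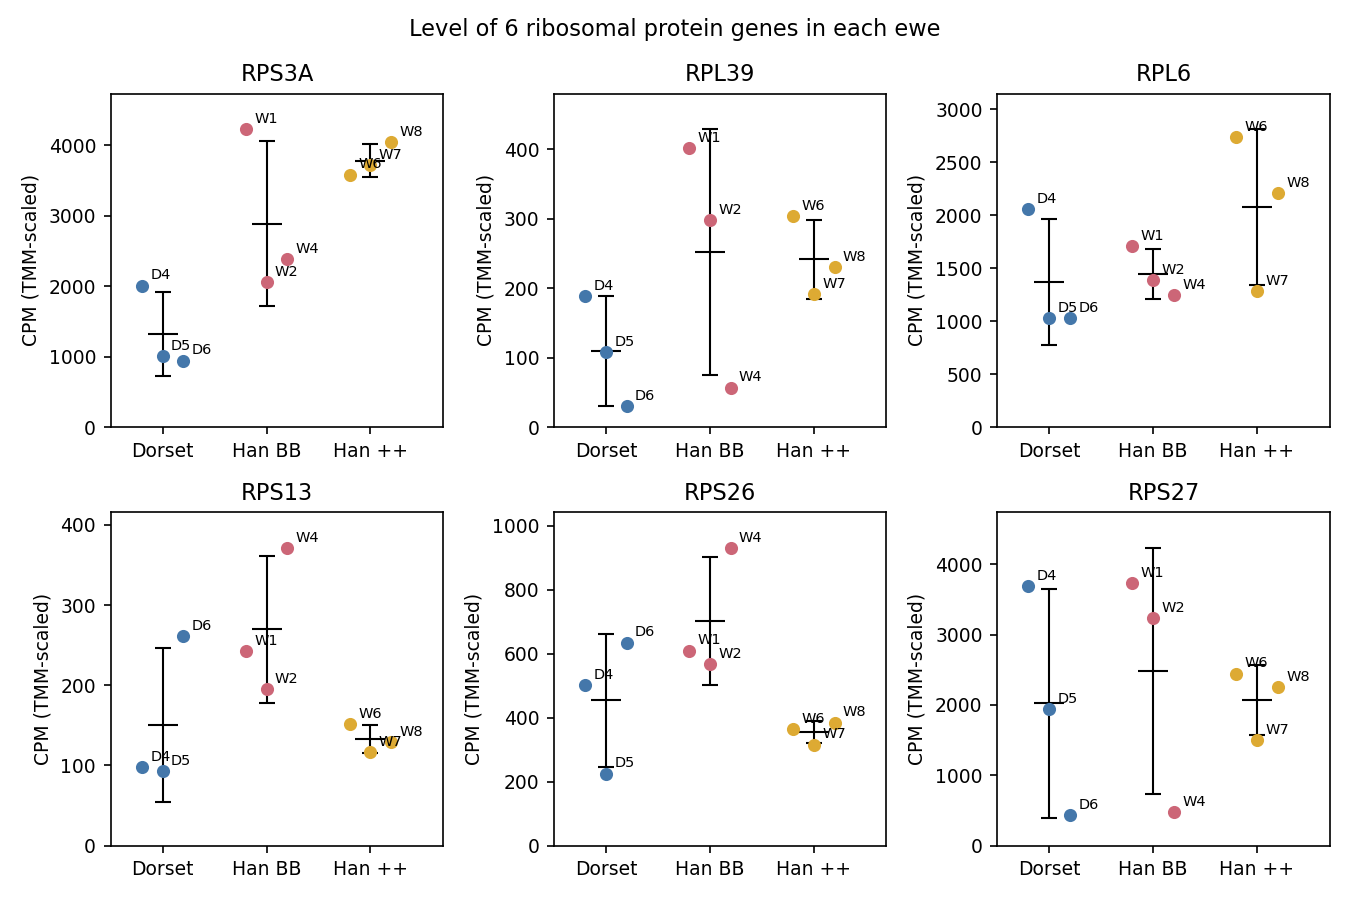
TMM-scaled CPM (y axis) of RPS3A, RPL39, RPL6, RPS13, RPS26 and RPS27 in each ewe, by group (x axis), with the mean and SD of 3 ewes in black. RPS3A lies between 944 and 2010 CPM in Dorset and between 2058 and 4227 CPM in Han, while RPS27 is lowest in W4 and D6.

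RPS13, a small subunit protein that binds the central domain of its ribosomal RNA, had the largest Han BB vs. Han ++ difference. It stood at 242, 195 and 371 CPM in W1, W2 and W4, and at 152, 117 and 130 CPM in W6, W7 and W8. The groups did not overlap, and the log2 difference was 1.02 ± 0.43 (SE) with an adjusted p of 0.999 by edgeR's quasi-likelihood test. In Dorset RPS13 was 98.2 CPM in D4, 92.6 in D5 and 261 in D6, so W4 and D6 were the highest libraries of their groups. Without these 2 libraries the Han BB vs. Han ++ log2 difference was 0.71.

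RPS26, which lies at the mRNA exit channel, behaved similarly, with 610, 566 and 931 CPM in W1, W2 and W4 against 363, 316 and 385 CPM in W6, W7 and W8. The Dorset ewes spanned both groups, at 502, 225 and 634 CPM (D4, D5 and D6). Its log2 difference between Han BB and Han ++ was 0.99 ± 0.39, and between Han ++ and Dorset -0.36 ± 0.39. RPS23, a protein of the decoding centre, was next, at 718 to 1026 CPM in Han BB, whereas Han ++ ranged from 442 to 630 CPM, with a log2 difference of 0.66 ± 0.33, and at 492 to 931 CPM in Dorset. Adjusted p-values of RPS26 and RPS23 in these comparisons were at least 0.999 by edgeR's quasi-likelihood test.

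RPS19, whose loss causes Diamond-Blackfan anaemia, was close between the groups on average. It stood at 383, 306 and 214 CPM in D4, D5 and D6, at 475, 272 and 178 CPM in W1, W2 and W4, and at 363, 273 and 280 CPM in W6, W7 and W8. The log2 fold changes were 0.04 ± 0.38 for Han BB and 0.02 ± 0.38 for Han ++ against Dorset. RPS28 was the lowest member of the Han BB vs. Dorset comparison at -0.14 ± 0.50, a value whose direction changed without W4, D4 or D5. RPS9 was at -0.08 ± 0.61 between Han BB and Han ++, and it turned positive without W4 or W6.

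Among large subunit genes, RPL39, a small protein of the peptide exit tunnel, had the largest fold change. It stood at 189, 108 and 30.4 CPM in D4, D5 and D6. In Han BB it was 401, 297 and 56.7 CPM in W1, W2 and W4, and in Han ++ 303, 192 and 230 CPM in W6, W7 and W8. Each Han ++ ewe was above each Dorset ewe, with W7 just over D4, while W4 lay among the Dorset values. The log2 fold changes were 1.21 ± 0.70 for Han BB and 1.15 ± 0.70 for Han ++ against Dorset, with adjusted p-values of 0.981 and over 0.999 by edgeR's quasi-likelihood test. Leaving out W4 and D6, they were 1.24 and 0.72.

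RPL6 set the Han groups apart in the other direction, through W6 and W8. It was 2738, 1287 and 2208 CPM in W6, W7 and W8, against 1708, 1391 and 1248 CPM in W1, W2 and W4 and 2054, 1028 and 1028 CPM in D4, D5 and D6. W7 lay inside the Han BB range, and the log2 difference of Han BB from Han ++ was -0.52 ± 0.39. Set against the members' reads, RPL6 was 3.36% in W6 and 3.04% in W8, and 1.49% to 2.06% in the other 7 libraries.

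RPL30, which also regulates splicing of its own transcript in yeast, was 341, 402 and 265 CPM in W1, W2 and W4 and 285, 133 and 161 CPM in D4, D5 and D6. The 2 groups overlapped only where W4 lay below D4, and the log2 fold change was 0.80 ± 0.35 with an adjusted p of 0.975 by edgeR's quasi-likelihood test. RPL36A was 1149 to 1467 CPM in Han BB, whereas Han ++ ranged from 736 to 951 CPM, with a log2 difference of 0.62 ± 0.34. RPL21 and RPL15 were among the lowest of the Han ++ vs. Dorset comparison, at -0.38 ± 0.33 and -0.34 ± 0.29. RPL28 was at -0.06 ± 0.46 between Han BB and Dorset and -0.04 ± 0.46 between Han BB and Han ++, and both values turned positive without W4.

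RPL5 and RPL11, which bind MDM2 together with 5S RNA when ribosome assembly is disturbed, showed small differences. RPL5 was 2593, 1225 and 2155 CPM in D4, D5 and D6, 2813, 2445 and 2104 CPM in W1, W2 and W4, and 2185, 1755 and 1809 CPM in W6, W7 and W8. RPL11 was 1647, 770.4 and 869 CPM in D4, D5 and D6, 1827, 1339 and 1046 CPM in W1, W2 and W4, and 1353, 1064 and 1335 CPM in W6, W7 and W8. D5 was the lowest library for both genes, and every pair of groups overlapped. Their Han BB vs. Dorset log2 fold changes were 0.30 ± 0.34 and 0.36 ± 0.37.

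The stalk proteins RPLP0, RPLP1 and RPLP2, which recruit elongation factors, varied with the library more than with the group. RPLP0 was 4515, 2204 and 1421 CPM in D4, D5 and D6, 4490, 4095 and 1441 CPM in W1, W2 and W4, and 3499, 2893 and 3116 CPM in W6, W7 and W8. RPLP2 was 3810, 1524 and 660.5 CPM in D4, D5 and D6, 2562, 3154 and 742 CPM in W1, W2 and W4, and 1856, 1641 and 2073 CPM in W6, W7 and W8. All 3 stalk genes were lower in W4 and D6 than in any other library, with mean log2 differences of -1.27 for RPLP0, -1.02 for RPLP1 and -1.69 for RPLP2. Their log2 fold changes between groups lay between -0.11 and 0.30.

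The libraries W4 and D6 gave the widest differences among the members. Both lay below all other 7 libraries for 29 of 64 members, against 17.2% of all genes, and both above for 4 (RPL15, RPS13, RPS25 and RPS26), against 18.6%. The mean log2 level in the 2 libraries was more than 2-fold below that of the other 7 for 23 members (35.9%, against 18.5% of all genes) and more than 2-fold above for 1. Among small subunit genes 11 of 24 lay below, and among large subunit genes 18 of 40. The summed marker levels of W4 and D6 lay within the range of the other 7 libraries for the ovarian, luteal (271 to 1717 CPM), ciliated, oviduct secretory and immune lists and for the mitochondrial transcripts of the RNA quality list (6147 to 20461 CPM), while D6 had the highest smooth muscle sum and W4 did not. Single markers did set the 2 libraries apart. PTPRC, a leukocyte marker and 1 of 12 immune markers, lay above the other 7 (163 and 105 CPM, where these had 37.7 to 86.8 CPM). INHA, an inhibin subunit of granulosa cells and 1 of 15 ovarian markers, lay below them (13.6 and 37.0 CPM, where these had 44.8 to 95.2 CPM). PAX8, 1 of 4 oviduct secretory markers, also lay below. No other marker of any list lay beyond the other 7 in both libraries. The immune marker TYROBP was low in both (36.7 and 32.2 CPM, against 36.4 to 386 CPM). INHBA, another inhibin subunit, was within the others' range (91.3 and 166 CPM, against 15.5 to 167 CPM). The part of these markers in the W4 and D6 differences was not tested. At most 2.76 CPM of red cell markers were present in any library.

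The genes with the largest spread within groups were those low in W4 and D6. RPL36 was 224 CPM in W4 and 251 in D6, where the other 7 libraries had 1141 to 2469 CPM, a log2 difference of -2.62. RPS27, a zinc finger protein of the small subunit, was 478 and 432 CPM in W4 and D6 against 1500.5 to 3730 CPM elsewhere (-2.49). RPS29 was 432 and 352 CPM against 1086 to 2186 CPM (-1.98), and RPL39 had a log2 difference of -2.46. For each of these 4 genes both libraries were below every other, whatever the group. The within-group SD of the log2 level was 1.37 for RPL36, 1.34 for RPS27, 1.19 for RPL39 and 1.07 for RPS29, and the median over members was 0.484, against 0.544 for all genes.

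At the other end, RPL7L1 had a within-group SD of 0.16, RPL24 of 0.23, RPL15 of 0.25 and RPL22 of 0.25. RPL7L1, a nucleolar relative of RPL7, lay between 79.2 and 106 CPM in all 9 libraries, and its log2 fold changes were within 0.01 of 0. RPL24 was 1282, 877 and 1186 CPM in D4, D5 and D6, against 1482, 1315 and 1425 CPM in W1, W2 and W4, and 1222, 947 and 861 CPM in W6, W7 and W8. Its Han BB ewes were thus above all other ewes, by a log2 fold change of 0.34 ± 0.29 against Dorset.

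**Figure D4:**
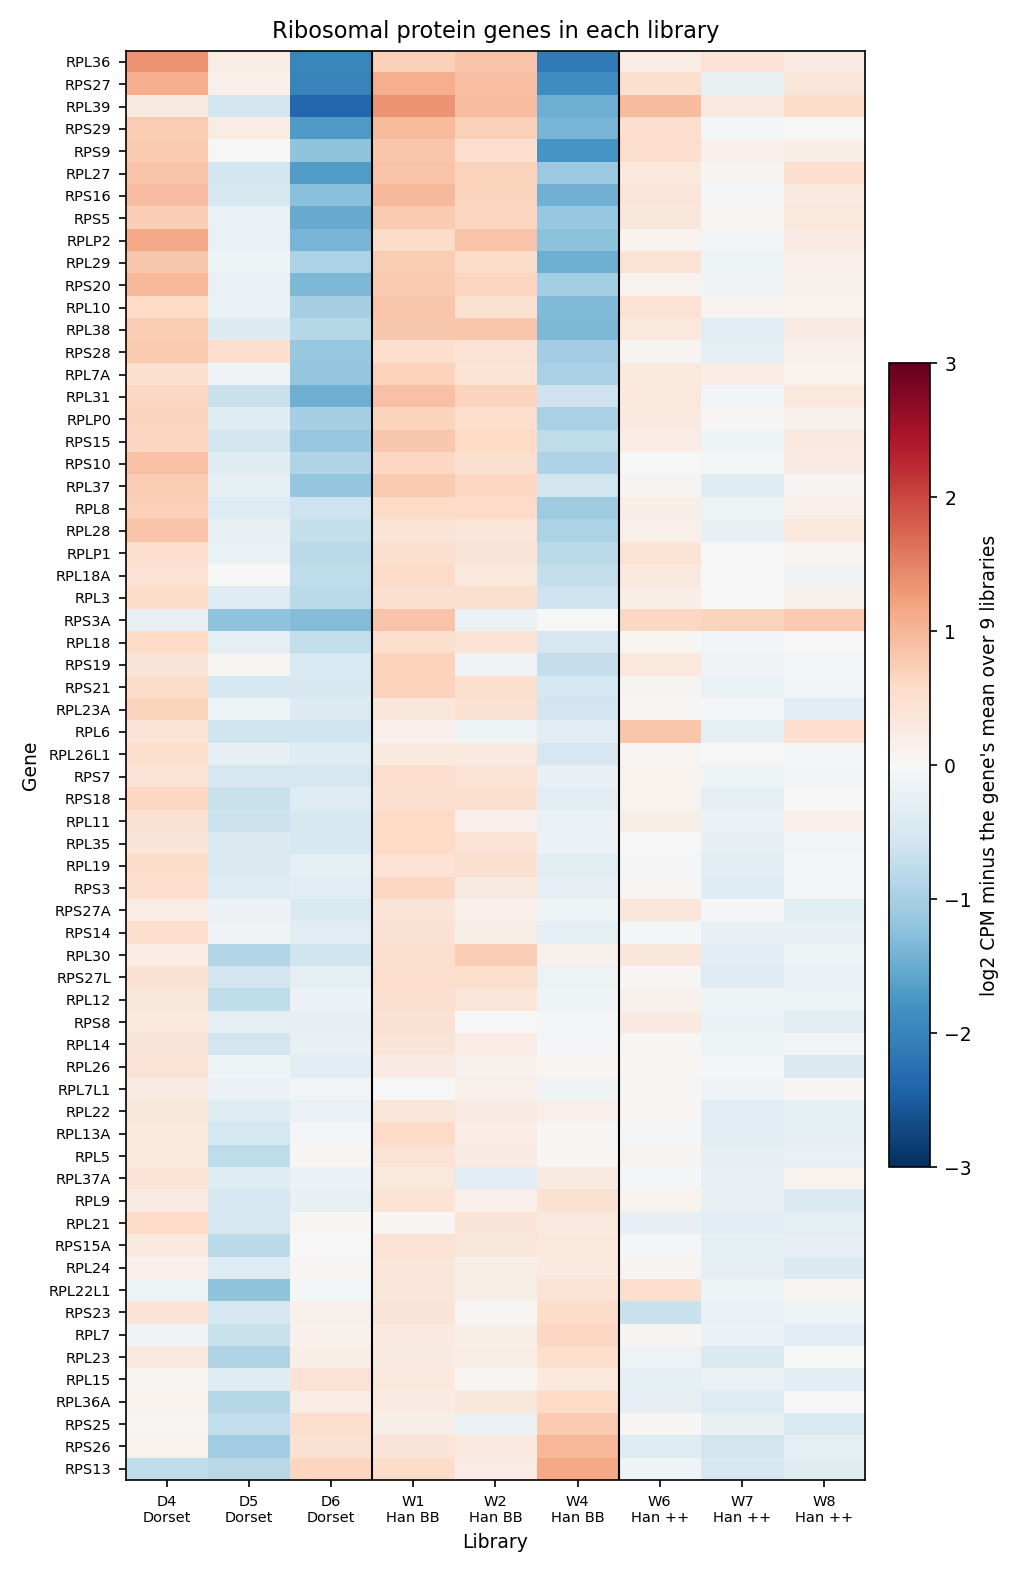
Heat map of the 64 tested ribosomal protein genes (y axis) in the 9 libraries (x axis, by group). Colour is log2 CPM minus the gene's mean over the 9 libraries, red above and blue below, and genes are ordered from those lowest in W4 and D6 (RPL36, -2.62) to those highest there (RPS13, 1.17).

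The mixture of members also varied between libraries. Set against the members' reads, the highest library exceeded the lowest by a median of 2.02-fold, and by more than 2-fold for 34 of 64 members. RPS13 (6.47-fold), RPL36 (6.46-fold), RPL39 (6.46-fold) and RPS27 (4.51-fold) varied most. RPS7 took 1.45% to 1.63% in every library (1.13-fold) and RPL35 1.79% to 2.14% (1.19-fold), so these 2 tracked the members' total most closely.

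The paralogs were compared with their related gene within each library, as a percentage of its reads. RPL22L1, which can replace RPL22 in the ribosome, was 2.93%, 2.32% and 4.64% of RPL22 in D4, D5 and D6. It was 4.05%, 3.91% and 4.93% in W1, W2 and W4, and 5.59%, 4.67% and 5.16% in W6, W7 and W8. Every Han ++ value lay above every Dorset value, with W7 only just above D6, and the log2 ratio differed by 0.70 (exact permutation p = 0.1, the smallest that 3 against 3 allow). The level of RPL22L1 itself was 27.7 to 62.0 CPM in Dorset, 71.7 to 85.0 in Han BB, with 58.0 to 90.5 in Han ++, and its Han BB vs. Dorset log2 fold change was 0.70 ± 0.33 with an adjusted p of 0.975 by edgeR's quasi-likelihood test.

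RPS27L, a p53-inducible relative of RPS27, was 3.1% to 4.47% of RPS27 in 7 libraries, and 16.6% in W4 and 16.9% in D6. RPS27L itself stood at 79.5 and 73.1 CPM in W4 and D6, within the 60.3 to 127 CPM of the others, so the ratio moved with RPS27. RPL7L1 was 4.72% to 7.68% of RPL7 in Han BB and 7.69% to 10.4% in Han ++, a log2 difference of -0.51 (exact permutation p = 0.1), with W2 only just below W6. RPL7L1 itself had a mean of 89.9 CPM in both Han groups, so this ratio moved with RPL7 (means of 1468 CPM in Han BB and 1033 in Han ++). RPL26L1 was 1.37% to 2.67% of RPL26 in all libraries.

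The related genes themselves lay at 1192 to 2000 CPM (RPL22), 2326 to 4235 CPM (RPL26), 707 to 1726 CPM (RPL7) and 532 to 1467 CPM (RPL36A) over the 9 libraries. RPL36AL was 49.7% to 133% of RPL36A, with the lowest ratios in D6 and W4. Across the 7 pairs and 21 exact tests the smallest p was 0.1, and after Benjamini-Hochberg adjustment none was below 0.7. The tissue-specific paralogs had few or no reads. RPL3L, the member too low to be tested, had 0 to 9 reads per library, and RPL10L had 10 reads in W2, 9 in D4 and 0 elsewhere.

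**Figure D5:**
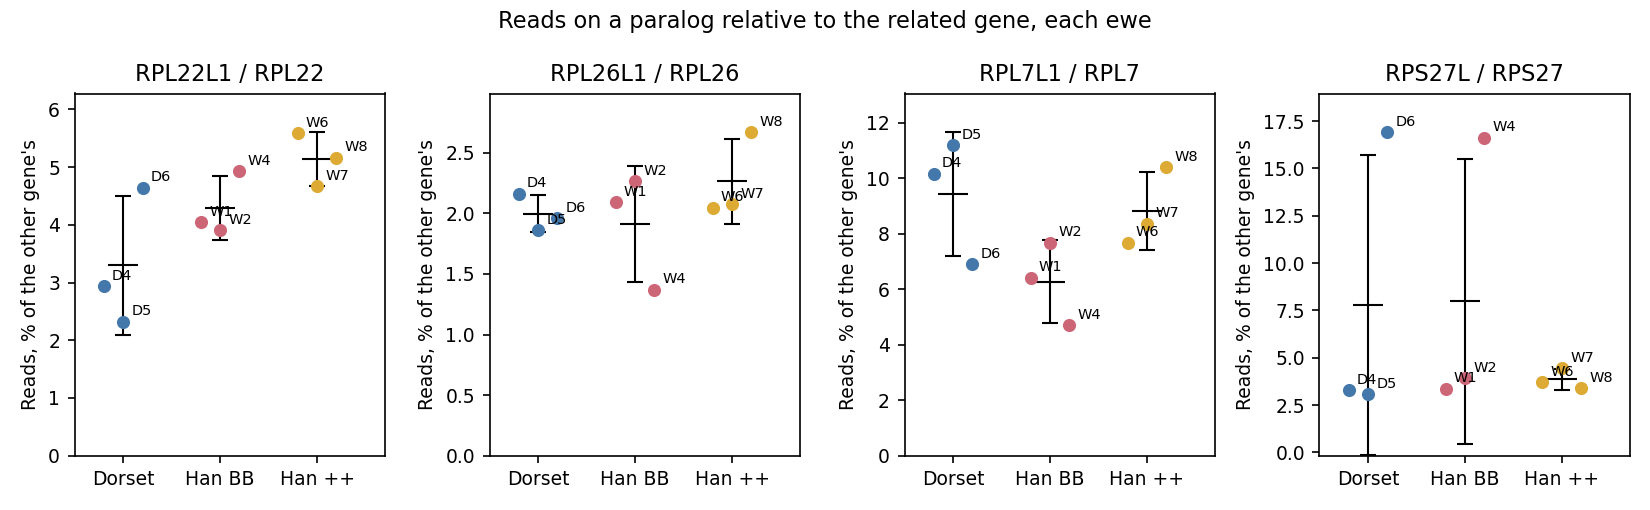
Reads on a paralog as a percentage of those on its related gene (y axis) in each ewe, by group (x axis), for RPL22L1, RPL26L1, RPL7L1 and RPS27L, with the mean and SD of 3 ewes in black. RPS27L stands at 16.6% and 16.9% of RPS27 in W4 and D6 and at 3.1% to 4.47% elsewhere.

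The symbol rule missed 15 rows that carry a locus number in place of a symbol and belong to ribosomal or ribosome-associated genes in the RefSeq gene table, and 13 of these were tested with 0 called. RPSA, the laminin receptor protein of the small subunit, was 2191, 961 and 398 CPM in D4, D5 and D6. It was 2621, 2217 and 422 CPM in W1, W2 and W4, and 1522, 1243 and 1716 CPM in W6, W7 and W8. As with RPLP2, W4 and D6 were the lowest libraries and the groups overlapped. RPS6, the substrate of S6 kinase, was 2440 to 5259 CPM in Dorset, 3020 to 4341 CPM in Han BB, whereas Han ++ ranged from 2345 to 3525 CPM, with log2 fold changes of 0.10 ± 0.37 and -0.16 ± 0.37 against Dorset.

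RPS12 and RPS24 resembled RPS13, with both W4 and D6 above the other 7 libraries. RPS12 was 1523 to 2227 CPM in Han BB, whereas Han ++ ranged from 791 to 1114 CPM. RPS24 was 2887 to 4810 CPM in Han BB, whereas Han ++ ranged from 2117 to 2265 CPM. RPL4 and RPS4X also separated these groups, giving 4 such rows of 13, with the larger value in Han BB, against the 4.78% of all genes given above.

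Genes that make or regulate ribosomes were described from lists of the pathway, and 0 genes of any list were called by edgeR in any comparison. The small subunit assembly list (36 tested) had median log2 fold changes of -0.09 for Han BB and -0.37 for Han ++ against Dorset, and the large subunit assembly list (39 tested) of -0.06 and -0.42, where those of all genes were -0.006 and -0.06. Both lists were high in W4 and D6, with median log2 differences of 0.78 and 0.74 from the other 7 libraries. Dorset holds D6, Han BB holds W4 and Han ++ holds neither. The part of these libraries in the medians was not tested. At an unadjusted p under 0.05, 5 of 39 large subunit assembly genes were lower in Han BB than in Dorset, against 2.89% of all genes, and 6 were lower in Han ++, against 2.66%. Of 36 small subunit assembly genes, 0 were lower in Han BB and 2 in Han ++ at the same cut. PES1, a large subunit processing factor, was 34.7, 56.9 and 65.3 CPM in D4, D5 and D6 and 27.0, 25.1 and 23.7 CPM in W6, W7 and W8, and its log2 fold change was -1.05 ± 0.36. NAT10, an RNA acetyltransferase of small subunit assembly, was at -1.10 ± 0.43 in the same comparison.

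The ends of each list, none of them called, were as follows on the log2 fold change scale. The small subunit assembly list ran from NAT10 to UTP15 against Dorset (-0.73 to 0.49 for Han BB, and for Han ++ -1.10 to 0.27) and from RRP9 at -0.53 to NOP58 at 0.81 between the Han groups. The large subunit assembly list ran from NOC4L at -1.20 to NIP7 at 0.31 for Han BB vs. Dorset, from PES1 at -1.05 to WDR74 at 0.22 for Han ++ vs. Dorset, and from GRWD1 at -0.41 to NMD3 at 0.84 between the Han groups. In the H/ACA and nucleolar list, NOP10 was highest against Dorset at 0.59 in Han BB and 0.31 in Han ++, and the lowest genes were TCOF1 in Han BB (-0.86) and GAR1 in Han ++ (-1.17). The TOP translation factors reached from EIF3F at -1.26 to PABPC1 at 0.58 in Han BB vs. Dorset, where EIF3F, an initiation factor subunit, had under 3 CPM in every library. MAX, the partner of MYC, was the highest control gene of that comparison at 2.22, and RPS6KB2, an S6 kinase, the lowest at -0.44. Among mitochondrial ribosomal proteins MRPS5 was lowest and MRPS24 highest in both comparisons with Dorset, at -0.56 and 0.68 in Han BB and -0.74 and 0.81 in Han ++.

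In W4 and D6 these lists lay opposite to most members. Both libraries lay above the other 7 for 21 of 36 small subunit assembly genes and 26 of 39 large subunit assembly genes, against 18.6% of all genes. The median log2 differences of these lists were 0.78 and 0.74, where the members' median was -0.52 and that of all genes -0.07. NOP58, a box C/D snoRNP protein, was 225 CPM in W4 and 214 in D6 against 38.0 to 87.4 CPM elsewhere. NMD3, the large subunit export adaptor, was 209 and 183 CPM against 50.8 to 70.2 CPM.

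Of 18 translation factors encoded by TOP mRNAs, 7 lay above in W4 and D6, against 18.6% of all genes, and 2 lay below, against 17.2%. PABPC1, the poly(A)-binding protein, was one of the 7, at 1948 and 993 CPM against 382 to 808 CPM. Mitochondrial complex I subunits lay below for 19 of 35, against 17.2% of all genes. Of 72 mitochondrial ribosomal proteins 24 lay below, against the same 17.2%. Another 13 lay above, which was near the 18.6% of all genes.

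Between the groups, mitochondrial ribosomal protein genes had median log2 fold changes of 0.09 for Han BB and -0.09 for Han ++ against Dorset, and 0.19 between Han BB and Han ++. Complex I subunits had 0.15, 0.08 and 0.08, and TOP translation factors 0.18, -0.09 and 0.28. RNA polymerase I genes had 0.08, -0.11 and 0.30, and the list of TOP and ribosome control genes 0.08, 0.02 and 0.12. The Han BB vs. Han ++ median was thus above 0 in each of these lists as well as in the members, where that of all genes was 0.04. It was also above 0 in the small subunit assembly (0.26), large subunit assembly (0.22) and H/ACA and nucleolar (0.12) lists. Han BB holds W4, whereas Han ++ holds neither W4 nor D6, and the part of W4 in these medians was not tested.

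Many ribosomal protein genes have processed copies elsewhere in the genome, and only uniquely mapped reads were counted, so the level of a gene such as RPS3A, RPL39 or RPL21 is uncertain where reads fit several copies. The strand setting of the counting was not stated, so reads of overlapping or antisense genes cannot be told apart from those of the members.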

How the data were processed

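The authors aligned RNA-Seq reads to the Oar3.1 sheep genome (Oar_v3.1 in the submitters' notes) with TopHat, retained reads with a unique position and deposited raw gene counts for 9 libraries. For the counting program, strand setting and versions: not given in the sources used here. The library kit is described differently in the methods (stranded total RNA, ribosomal RNA removed) and the labels. The members and lists were chosen with earlier results of these data known.

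Counts were filtered with filterByExpr by group (16871 genes kept), scaled by TMM and tested with edgeR 4.0.16 (glmQLFit and glmQLFTest, all 9 libraries in 1 fit) in R 4.3.3. The test was tried on simulated data. Recovery of changed genes was required there only at a spread below that of these data, so its power here was not shown. limma 3.58.1 (voom) and DESeq2 1.42.0 were alternatives, and matplotlib 3.10.9 drew the plots. CPM are TMM-scaled, with a prior count of 0.5 for log2 levels. Depth was 10803913 to 20992535 counts, and no pair of replicate libraries agreed within sampling noise (chi-square per degree of freedom of at least 60.1). p-values measure the spread between ewes (biological coefficient of variation 0.472). The SE of a log2 fold change was derived from the quasi-likelihood test, as the size of the change divided by the square root of the F statistic.

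Genes named with values were the 4 highest and 4 lowest members of each comparison, the 4 of largest and the 4 of smallest spread, the paralogs, members called by any tool, RPS6, RPS19, RPL5, RPL11, RPSA and the stalk genes. RPS25, RPS12, RPS24, RPL4, RPS4X, RPS14, RPS7 and RPL35 were chosen for naming with their values in view. The highest and lowest genes of the pathway lists were named for part of the lists, and NOP58, NMD3 and PABPC1 in W4 and D6 were picked by value. By symbol, 64 of 65 members matched the RefSeq table (ARS-UI_Ramb_v3.0), whose build differs from that of the counts, so no coordinates are given. Without transcript lengths, levels were not compared between genes.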

Additional observations from a re-analysis of the deposited data

How the results depend on the processing

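With 3 ewes per group the spread between ewes limits every comparison. The number of members called stayed at 0 in each comparison under every alternative run, except that DESeq2 called 1 (RPS3A) in Han ++ vs. Dorset. Its adjusted p by DESeq2 was 0.023, and DESeq2 called 65 of 16108 genes in that comparison. The cause of the difference between tools was not tested.

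Leaving out each library in turn moved the median log2 fold change from 0.12 (without D6) to 0.70 (D4) for Han BB vs. Dorset, from -0.13 (D5) to 0.41 (D4) for Han ++ vs. Dorset, from 0.03 (W1) to 0.47 (W4) for Han BB vs. Han ++ and from 0.004 to 0.55 for both Han groups vs. Dorset. The counts of members whose groups did not overlap ranged over 6 to 25, 2 to 29, 14 to 51 and 1 to 9, highest without D4, D4, W4 and D4, where 18.7%, 32.4%, 26.3% and 10.7% of all genes did not overlap. Without both W4 and D6 the counts were 17, 5, 50 and 5 (26.6%, 7.81%, 78.1% and 7.81% of the members), against 33.3%, 23.1%, 26.2% and 13.9% of all genes, in either direction. In Han BB vs. Dorset 16 of 64 members were then higher, against 15.9% of all genes, and 1 was lower, against 17.4%. In Han ++ vs. Dorset 4 were higher, against 11.1%, and 1 was lower, against 12%. With all libraries kept, DESeq2 size factors, TMM without the members and no filter left the counts of members without overlap within 1.5 times. A filter of 1 CPM in 3 libraries gave 1 in Han ++ vs. Dorset in place of 2 (both filters were applied to these counts after seeing the data). Under voom the medians were 0.65, 0.21 and 0.42, and with a term for W4 and D6 0.26, -0.16 and 0.47.

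Some directions reversed. Under voom, RPS28 was 0.16, RPL36 0.54, RPL28 0.37 and RPL7L1 0.10 in Han BB vs. Dorset, RPS26 0.044 in Han ++ vs. Dorset (-0.36 by edgeR), and RPS9 0.20 and RPL28 0.21 in Han BB vs. Han ++. With a term for W4 and D6, the last 2 were 0.25 and 0.25, and without both libraries 0.37 and 0.28. RPL7L1 was 0.0037 with DESeq2 size factors, 0.010 with TMM without the members, 0.0058 with DESeq2 and 0.020 without W4 and D6. Leaving out 1 library, the ranges were -0.53 to 0.22 for RPS28, -0.58 to 0.78 for RPL36, -0.33 to 0.51 for RPL28 and -0.080 to 0.13 for RPL7L1 in Han BB vs. Dorset, and -0.54 to 0.37 for RPS9 and -0.26 to 0.28 for RPL28 in Han BB vs. Han ++. The causes were not tested.

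The comparison of members by length was not run, since no lengths were given. No paired analysis was possible because the labels carry no replicate numbers that tie ewes of different groups.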
